A study of Mus musculus with 4 samples.

Results

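The genes described here are the mouse H2 genes of the major histocompatibility complex (MHC) and the genes that prepare peptides for its class I molecules. They were chosen by name, as every non-control probe whose gene name begins with H2- , plus B2m, Tap1, Tap2, Tapbp, Psmb8, Psmb9 and Psmb10. The rule took 73 of the 41174 probes on the array, which carry 44 gene names and fill 109 spots. The list was put forward with the ratio of mutant to wild type already seen, so that ratio is given for each gene as a description, with no p-value.

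The study asked which transcripts differ in whole mouse embryos that carry the V1330M point mutation of Btaf1, a remodelling ATPase that removes the TATA-binding protein from DNA. The labels call the mutant pools Btaf1-/- and the wild-type pools Btaf1+/+. Pools were compared on 4 two-colour arrays in 2 sets, and each set was hybridised with the dyes one way (array 1, mutant in Cy5) and then exchanged (array 2, mutant in Cy3). In the stage-matched set the pools were matched by somite number. In the age-matched set they held as many litter mates as possible, and a difference of up to 5 somites was allowed. Where possible, embryos of both genotypes had 3 to 5 somites. All pools came from the hybrid C57BL/6J *FVB/NJ background, with an FVB share of 50 to 90%. The arrays of a set hold the same RNA, so each set counts once (n = 2), and how many embryos each pool held is not given in the sources used here. All 4 arrays lie on the same slide and share the same scan.

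Class I molecules are a heavy chain, encoded by an H2 gene, bound to beta-2 microglobulin, the light chain encoded by B2m. They carry peptides that the proteasome cuts in the cytosol and that the transporter Tap1 and Tap2 brings into the endoplasmic reticulum, where tapasin (Tapbp) helps to load them, and they display these peptides to cytotoxic T cells and natural killer cells. Class II molecules pair an alpha with a beta chain and are made mainly by B cells, macrophages and dendritic cells. Early embryos before organ formation hold few such cells and are known for low MHC expression.

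The hybrid's parents carry different alleles of these genes. C57BL/6J has the H2 haplotype called b and FVB/NJ the haplotype called q, which differ in sequence along the class I and class II genes and in which class I genes are present. The array's probes are 60 bases long, and the labels do not say which H2 haplotypes a pool held. A probe can bind the transcript of one haplotype more strongly than that of the other, so a ratio between pools can also follow their haplotypes, and its part in the ratios below was not tested.

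The class I genes also resemble one another. Of the 37 member probes that could be tested, 30 list 1 gene among their accessions, 3 list several and 4 list none that matched RefSeq. Among the 666 pairs of these probes, 8 overlapped by at least 20 bases with at least 80.0% of the bases the same, and 5 of those joined probes of different genes. The pairs printed here show how little separates the targets, with the overlapping stretch in capitals. The H2-D1 and H2-Q2 probes share 47 of 50 overlapping bases. The H2-Q10 and H2-Q5 probes share all 35.
H2-D1 A_52_P313279: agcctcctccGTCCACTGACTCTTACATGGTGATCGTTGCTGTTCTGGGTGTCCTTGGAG
H2-Q2 A_51_P219789: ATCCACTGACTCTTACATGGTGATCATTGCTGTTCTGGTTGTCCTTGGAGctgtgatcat
H2-Q10 A_51_P496997: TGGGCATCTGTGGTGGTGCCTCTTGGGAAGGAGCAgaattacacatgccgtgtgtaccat
H2-Q5 A_51_P400752: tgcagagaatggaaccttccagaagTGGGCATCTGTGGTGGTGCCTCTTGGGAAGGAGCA

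The H2-Q10 probe lists H2-D1, H2-Q1, H2-Q10 and H2-Q6 among its targets. Ratios of overlapping probes are therefore not separate measurements of their genes. A further set of probes, shown without capitals because they overlap no probe of another gene to that extent, carries the names of genes whose probes are compared below. The H2-K1 probe A_52_P474242 and the H2-Bl probe are still alike along most of their length, so falling short of the cut does not make their ratios separate. Each probe of this set has a reading frame free of stop codons along its whole length.
H2-K1 A_52_P474242: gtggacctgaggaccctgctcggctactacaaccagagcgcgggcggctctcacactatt
H2-K1 A_52_P50496: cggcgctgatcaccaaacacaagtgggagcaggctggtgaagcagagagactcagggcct
H2-Bl A_52_P350519: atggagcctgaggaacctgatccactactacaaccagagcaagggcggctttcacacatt
H2-T22 A_52_P197826: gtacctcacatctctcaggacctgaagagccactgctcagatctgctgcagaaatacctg
H2-Ab1 A_51_P215237: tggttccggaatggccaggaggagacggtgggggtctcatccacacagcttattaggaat

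Probe positions below are on mm9, as in the file headers, which give no exon or untranslated region. A probe was tested where the mutant channel, or the wild-type channel, was well above background on all 4 arrays. That held for 37 member probes of 21 genes. Of the other 36 probes, 30 were well above background in no channel of any array, and 6 in some. The 23 genes without a tested probe were H2-M1, H2-M3, H2-M9, H2-M10.1 to H2-M10.6, H2-M11, H2-T3 and H2-T24 of class I, H2-Aa, H2-DMa, H2-DMb2, H2-Ea, H2-Eb1, H2-Eb2 and H2-Ob of class II, and Psmb8, Psmb9, Tap1 and Tap2 of processing. H2-M3, which presents formylated bacterial and mitochondrial peptides, came closest, with 3 mutant and 3 wild-type channels of 4 above background. H2-DMa, the alpha chain of the class II peptide editor, had the same counts. Psmb8 and Psmb9, which encode inducible proteasome subunits, each had 2 mutant channels and 1 wild-type channel above background.

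Each value is the mutant channel over the wild-type channel as a log2 ratio, after background correction and loess normalization. A gene with several tested probes is stood for by the brightest. Its mean is over the 2 sets and its error is the SD between the set means (n = 2). Of the 21 genes, 14 had a mean above 0 and 7 below, with a median of 0.24. Over all 13813 tested genes 7470 were above 0 and 6343 below, with a median of 0.02. On all 4 arrays, 12 member genes were above 0, where 14.8% of all tested genes were, and 7 were below 0, where 13.8% were. By limma with Benjamini-Hochberg adjustment over the 21940 tested probes (threshold 0.05), 4 member genes passed as higher, where 2.11% of all tested genes did, and 2 as lower, where 2.77% did. As the genes were chosen with this ratio in view, nothing is read from these counts. Without age-matched array 1, 0 member probes passed in either direction, and over all probes 10 passed as higher and 13 as lower. With all arrays 8 member probes passed as higher, where 1.66% of all probes did, and 2 as lower, where 3.14% did.

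**Figure D1:**
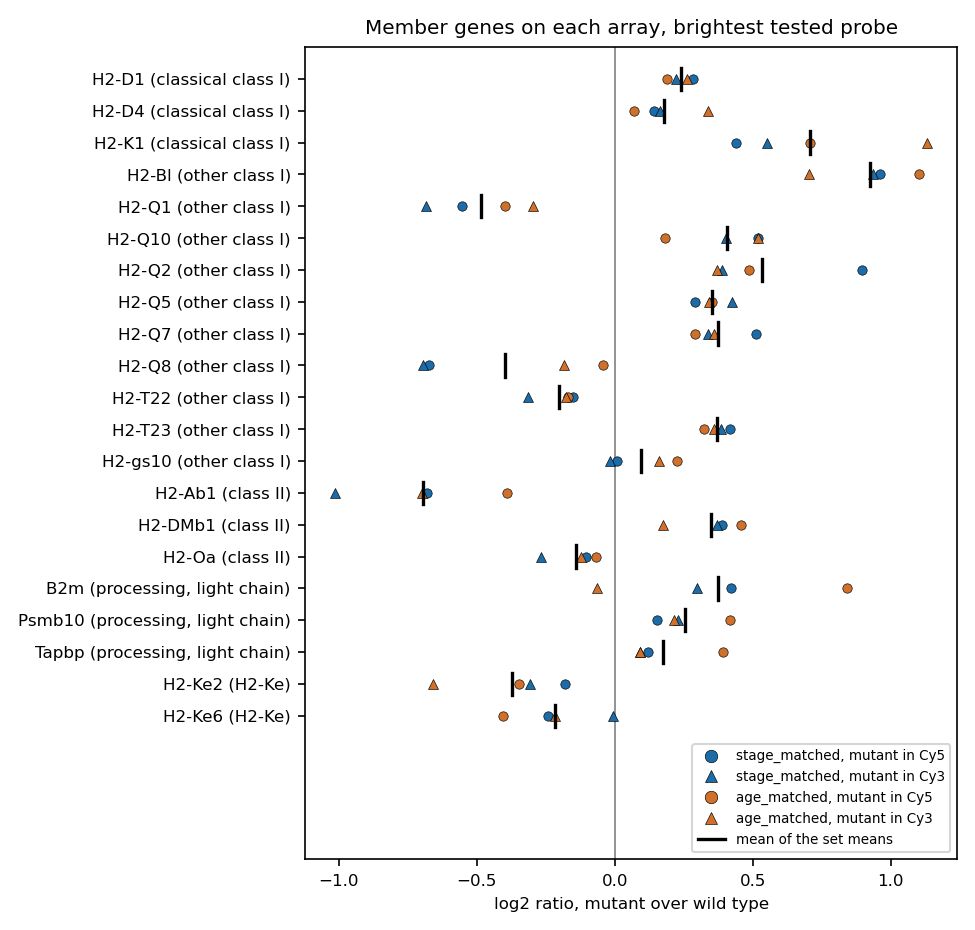
Log2 ratio of mutant over wild type (x axis) on each of the 4 arrays for the 21 member genes with a tested probe, each by its brightest tested probe and grouped by role. Circles are arrays with the mutant in Cy5, triangles arrays with the mutant in Cy3, colours are the sets, and the bar is the mean of the 2 set means. Most class I genes lie right of 0, and H2-Q1, H2-Q8, H2-T22, H2-Ab1, H2-Oa and both H2-Ke genes lie left of it.

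The classical class I genes, which display peptides on nearly all nucleated cells of the adult, had ratios above 0 on every array by their brightest probes. The median was 0.24 over the 3 gene names, of which H2-D4 may not be a separate gene. H2-K1 had the highest of them, by its probe A_51_P198434 at chr17:34133055-34133114. Its normalized intensity was 2895 and 2800 in the mutant and 2133 and 1909 in the wild type on stage-matched arrays 1 and 2. On age-matched arrays 1 and 2 it was 4142 and 3668 in the mutant, against 2535 and 1673 in the wild type. Within every array the mutant channel was the brighter. The log2 ratios were 0.44 and 0.55 in the stage-matched set and 0.71 and 1.13 in the age-matched set, a mean of 0.71 ± 0.30, or 1.63-fold.

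H2-D1, at chr17:35403132-35403191, is the other classical heavy chain of the b haplotype. Its ratios were 0.28 and 0.22 in the stage-matched set and 0.19 and 0.26 in the age-matched set, a mean of 0.24 ± 0.02. They were the closest together of the classical genes. This probe also lists H2-Q2, and the second probe, which lists H2-D1 alone, gave 0.36. The probe named H2-D4 gave 0.14 and 0.16, then 0.07 and 0.34, with a mean of 0.18 ± 0.04. That name is the array's, and no accession of the probe matched RefSeq. The probe lies at chr17:35400857-35400910, close to the tested H2-D1 probes and on the same strand. Whether it measures a gene apart from H2-D1 was not tested.

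The 4 probes of H2-K1 did not give the same ratio. The second probe, A_51_P190499, has no position in the files. It shares 49 of 57 overlapping bases with the first. Its ratios were 0.42 and 0.47 in the stage-matched set and 0.86 and 0.93 in the age-matched set, a mean of 0.67. Neither of these probes holds an open reading frame. The other pair, printed above, is open along its length and lies nearer the start of the gene, which is on the minus strand. A_52_P50496 at chr17:34136288-34136347 gave 0.55 and 0.40, then 0.00 and 0.60, over the 4 arrays in the same order, a mean of 0.39. A_52_P474242 at chr17:34136478-34136724 gave values at or near 0, of 0.00 and 0.05, then -0.22 and 0.13, a mean of -0.01. The H2-K1 ratio thus ran over 0.72 log2 units between probes, the widest of the 10 genes with 2 or more tested probes. Only the first 2 of the 4 passed the threshold. The probes also differed in signal, with mean log2 intensities of 11.3, 9.8, 8.1 and 7.7 in the order given. The brightest thus gave the highest ratio and the dimmest the lowest. The parts of signal level, position and sequence in this spread were not tested.

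**Figure D2:**
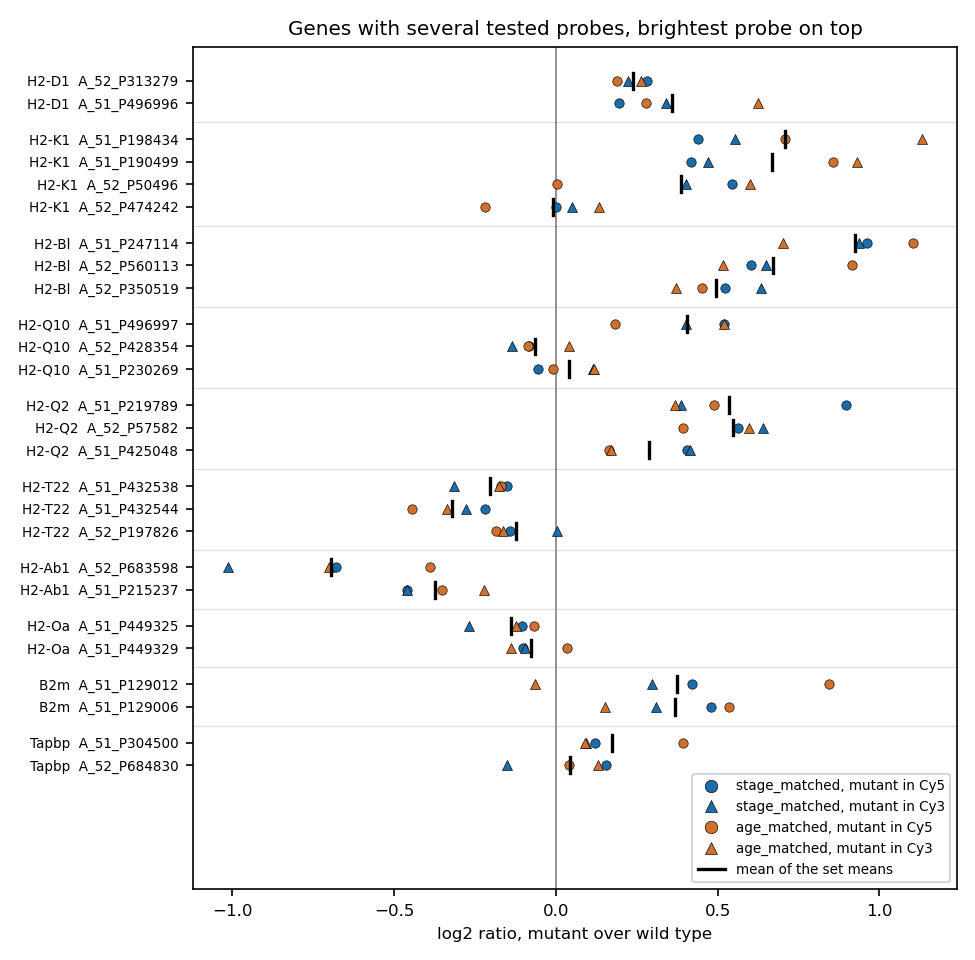
Log2 ratio of mutant over wild type (x axis) on each array for every tested probe of the 10 member genes that have 2 or more, with the brightest probe of a gene on top and symbols as in the plot of genes by array. The 4 H2-K1 probes spread over 0.72 log2 units, while the B2m probes share a mean of 0.37.

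The other class I genes bind peptides or other ligands in more restricted tissues or for more specialised receptors. Of their 22 names 10 had a tested probe, with a median ratio of 0.36, 7 above 0 and 3 below. The median was 0.24 with the mean of each gene's tested probes, 0.22 with probes that list at most 1 gene, and 0.029 with no filter on dim probes, which brings in the genes not above background. The ratio was furthest from 0 for H2-Bl, which RefSeq lists as a transcribed pseudogene. Its probe A_51_P247114 at chr17:36217089-36217148 had intensities of 917 and 929 in the mutant and 471 and 486 in the wild type in the stage-matched set. In the age-matched set they were 1193 and 623 in the mutant, against 555 and 383 in the wild type. The ratios were 0.96 and 0.94, then 1.10 and 0.70, with a mean of 0.93 ± 0.03, or 1.90-fold. The mutant channel was brighter on every array, and the set means were nearly equal. The second probe overlaps the first by 30 identical bases and gave 0.67, and the third, nearer the gene's start, gave 0.49. All 3 passed the threshold. Their mean log2 intensities were 9.3, 8.0 and 7.7 in the same order, so here too the brightest probe gave the highest ratio.

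H2-Q2 is a gene of the Q region, which lies beside H2-D1. Its probe A_51_P219789 at chr17:35482113-35482172 had intensities of 2011 and 1468 in the mutant and 1081 and 1122 in the wild type in the stage-matched set, and of 1581 and 1067 in the mutant and 1128 and 826 in the wild type in the age-matched set. The ratios were 0.90 and 0.39, then 0.49 and 0.37, a mean of 0.53 ± 0.15. Stage-matched array 1 stood above the other arrays. The probe A_52_P57582 carries the same gene name but is placed at chr17:36193352-36193527, in the T region beyond H2-T22, and gave 0.55. The third, at chr17:35460007-35460066, gave 0.29.

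The remaining 8 genes of this group ran from -0.48 to 0.41 in their means. H2-Q10, whose product is secreted by the adult liver, had 3 tested probes, which differ in their listed targets and in signal. The probe with several listed targets gave 0.52 and 0.40, then 0.18 and 0.52, a mean of 0.41 ± 0.08 that passed the threshold. The tested probes that list H2-Q10 alone gave -0.07 and 0.04. They were dim, with mean log2 intensities of 7.1 and 6.8, against 9.9 for the probe with several targets. The second had its mutant channel well above background on 3 of 4 arrays. Whether targets or signal level set these probes apart was not tested. The probe named H2-Q5, which shares 35 bases with the H2-Q10 probe of several targets, lies at chr17:36246864-36247298 and gave 0.35 ± 0.01. H2-Q7, which encodes a Qa-2 antigen, gave 0.37 ± 0.07, and H2-T23, which encodes Qa-1, the molecule read by the CD94-NKG2A receptor of natural killer cells, gave 0.37 ± 0.04. Their probes share 50 of 59 overlapping bases. The gene named H2-gs10 on the array is H2-Q4 in RefSeq and gave 0.09 ± 0.14.

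The other 3 genes lay below 0 on all 4 arrays, and they are named because of that. H2-Q1 gave -0.56 and -0.68, then -0.40 and -0.30, a mean of -0.48 ± 0.19. Its mutant channel was well above background on 2 of the 4 arrays and its wild-type channel on all, so the ratio rests on a dim mutant signal of 96 to 128, against 142 to 168 in the wild type. It is 1 of the 2 lower calls, and is not tested where both channels must be above background, which leaves 1 lower call, of H2-Ab1. H2-Q8 gave -0.67 and -0.69 in the stage-matched set, and -0.04 and -0.19 in the age-matched set, a mean of -0.40 ± 0.40. H2-T22, whose product is recognised by some gamma-delta T cells, gave -0.15 and -0.32, then -0.17 and -0.18, a mean of -0.20 ± 0.04. Its other probes gave -0.32 and -0.12, and its brightest probe also lists H2-T10.

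Class II had 3 tested genes of 10, with a median of -0.14, which turned to 0.018 with no filter on dim probes. H2-Ab1, the beta chain of the I-A molecule, was the one that passed the threshold. Its probe A_52_P683598 at chr17:34406059-34406118 had intensities of 184 and 150 in the mutant and 294 and 303 in the wild type in the stage-matched set. In the age-matched set they were 240 and 148 in the mutant, against 315 and 241 in the wild type. The mutant channel was the dimmer on every array, with ratios of -0.68 and -1.01, then -0.39 and -0.70, a mean of -0.70 ± 0.21 (1.62-fold lower). The second probe, printed above, gave -0.37, with the mutant well above background on 1 of 4 arrays and the wild type on all. The gene has 4 probes, of which 2 were tested. Of the untested, A_52_P570717 was above background in 1 mutant channel, with ratios of 0.11 and 0.34, then 0.03 and 0.22. A_51_P215242 was above background in no channel, with 0.13 and 0.06, then -0.19 and 0.20. H2-Aa, which encodes the alpha chain that partners it, was well above background on no array.

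H2-DMb1 encodes the beta chain of the editor that exchanges peptides on class II molecules. Its ratios were 0.39 and 0.37, then 0.46 and 0.17, a mean of 0.35 ± 0.05, above 0 on every array. The signal was dim, at 128 to 169 in the mutant and 113 to 130 in the wild type. Over the processing settings the mean ran from 0.25 to 0.84, and the gene's other probe was not tested. H2-Oa encodes the alpha chain of H2-O, which restrains that editor. Its ratios were -0.10 and -0.27, then -0.07 and -0.12, a mean of -0.14 ± 0.06. The editor's other chain, H2-DMa, and the partner of H2-Oa, H2-Ob, had no tested probe. H2-Ea, which is defective in the b haplotype and a transcribed pseudogene in RefSeq, was above background on no array.

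**Figure D3:**
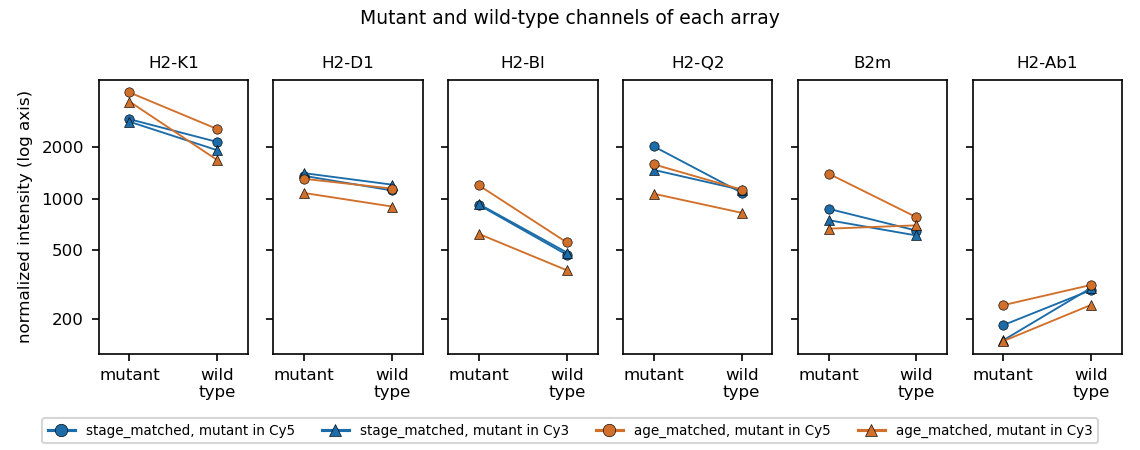
Normalized intensity (y axis, log scale) in the mutant and wild-type channels of each array for 6 member genes, by the brightest tested probe, with each line joining the channels of an array. Lines fall towards the wild type for H2-K1, H2-D1, H2-Bl and H2-Q2 and rise towards it for H2-Ab1, while 1 of the 4 B2m lines runs the other way from the rest. Levels of different probes are not comparable.

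Of the genes for the light chain and for peptide processing, 3 of 7 were tested, with a median of 0.25, and 0 passed the threshold (2 were higher at an unadjusted p under 0.05, as were 11.4% of all tested genes). B2m, at chr2:121978401-121978460, had intensities of 872 and 749 in the mutant and 651 and 610 in the wild type in the stage-matched set. In the age-matched set they were 1397 and 668 in the mutant and 779 and 699 in the wild type. The ratios were 0.42 and 0.30, then 0.84 and -0.06, a mean of 0.37 ± 0.02. The groups overlapped within the age-matched set, where array 2 gave the wild type the brighter channel. The second B2m probe gave 0.48 and 0.31, then 0.53 and 0.15, with the same mean of 0.37.

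Psmb10 encodes a proteasome subunit that replaces a constitutive one in the immunoproteasome. It gave 0.15 and 0.23, then 0.42 and 0.21, a mean of 0.25 ± 0.09, above 0 on every array. Tapbp, tapasin, gave 0.12 and 0.09, then 0.39 and 0.09, a mean of 0.17 ± 0.10, and its second probe gave 0.04. The constitutive proteasome subunits that Psmb8, Psmb9 and Psmb10 replace had a median of 0.08 with 0 of 3 passing (0 also at an unadjusted p under 0.05), and the largest were Psmb6 at 0.13 ± 0.04 and Psmb7 at 0.08 ± 0.21.

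The last pair bear an H2 name for their place in the region only. H2-Ke2 is prefoldin subunit 6 (Pfdn6), part of a chaperone for newly made actin and tubulin. It gave -0.18 and -0.31, then -0.35 and -0.66, a mean of -0.37 ± 0.18. H2-Ke6 (Hsd17b8) encodes a dehydrogenase of mitochondrial fatty acid synthesis, and gave -0.24 and -0.01, then -0.40 and -0.22, a mean of -0.22 ± 0.13. Both were below 0 on every array, and neither passed the threshold, though 1 was lower at an unadjusted p under 0.05, as were 11.3% of all tested genes.

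**Figure D4:**
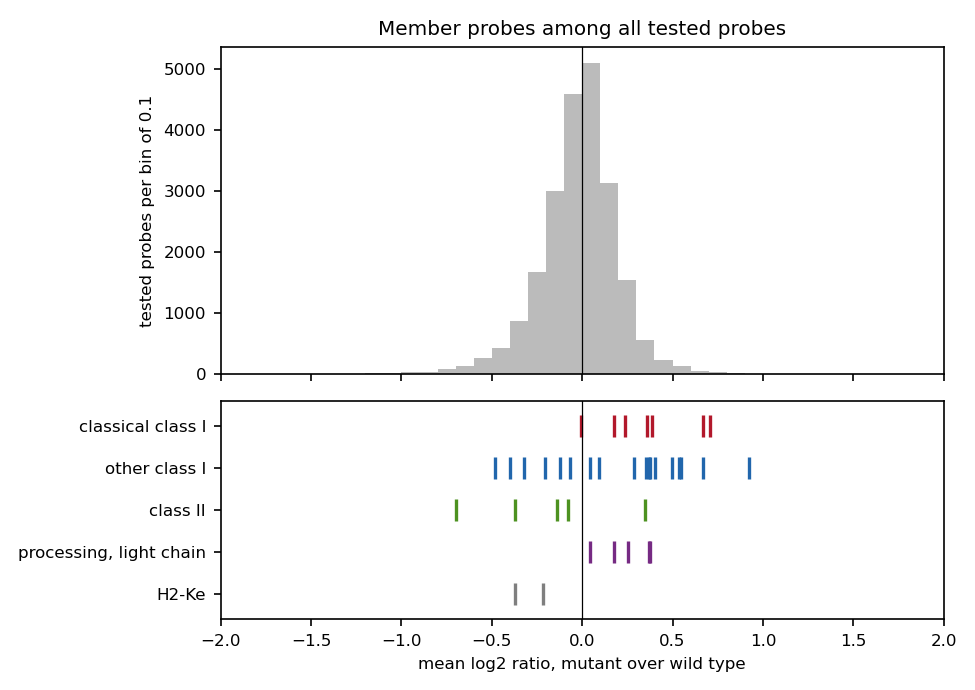
Number of tested probes (y axis of the upper panel) by mean log2 ratio of mutant over wild type (x axis) for all 21940, with the 37 tested member probes as ticks by role below. All probes have a median of 0.00, the 25 class I probes one of 0.35, and the 5 class II probes one of -0.14. The class II genes have a median of 0.018 when dim probes are not filtered out.

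Whether the ratio differed between the sets is a separate contrast, which the choice of genes did not use. In a limma fit to the single arrays, with the set and the dye orientation as terms, 0 of the 37 member probes passed the threshold, where 2.31% of all tested probes did. At an unadjusted p under 0.05 there were 3 of 37 members, where 11.9% of all probes were. The error here is between dye-exchanged arrays of the same RNA, with an SE of 0.17 to 0.18, and leaves out the spread between embryos. The limma prior had 242 degrees of freedom, so the error is almost wholly pooled over all probes. It says little about the spread of a single probe's own arrays, and the p-value of a probe mainly follows the size of its difference. H2-Q8 came nearest, with -0.11 in the age-matched set and -0.68 in the stage-matched set, a difference of 0.57 (SE 0.17, limma adjusted p = 0.0531). It passed in 3 of 6 other processing settings, with adjusted p-values over those 6 from 0.0251 to 1. For H2-K1 the difference was 0.42 by the first probe (adjusted p = 0.245) and 0.45 by the second (adjusted p = 0.198), with the age-matched set higher, and neither passed.

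**Figure D5:**
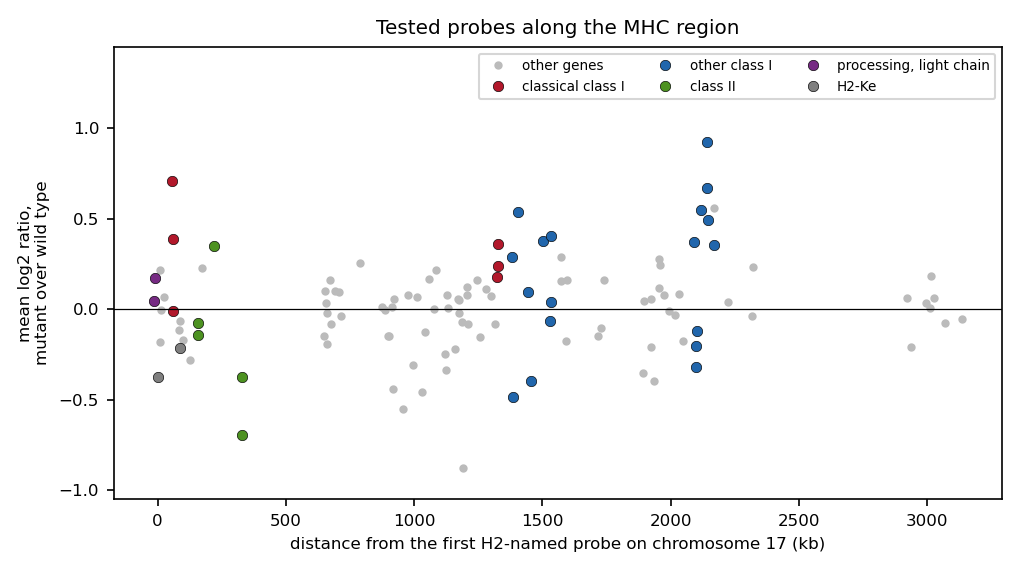
Mean log2 ratio of mutant over wild type (y axis) of tested probes by distance in kb from the first H2-named probe on chromosome 17 (x axis), for members by role and for other genes in grey. Class I probes above 0.5 occur at H2-K1, at H2-Q2 and in the T region at about the place of H2-Bl.

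The neighbouring genes in the same stretch, chr17:34076578-37411409 on mm9, are given for comparison. Of 86 tested genes 45 had a mean above 0 and 41 below, with a median of 0.01. On all 4 arrays 8 were above 0 (9.3%) and 21 below (24.4%), where 14.8% and 13.8% of all tested genes were. By the same limma fit 1 passed as higher and 4 as lower, where 2.11% and 2.77% of all tested genes did. The largest were Apom, which encodes an apolipoprotein carried on high-density lipoprotein, at -0.88 (adjusted p = 0.00536), C920025E04Rik at 0.56 (adjusted p = 0.0260) and Zbtb12, a zinc finger gene, at -0.55 (adjusted p = 0.0295). C920025E04Rik is not H2-named on the array, but RefSeq lists it as H2-T-ps, a class I gene. Its probe, at chr17:36246598-36246657, lies beside the one named H2-Q5.

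Class I and B2m promoters hold known control sequences, namely a site for NF-kappaB, an interferon-stimulated response element, and an SXY module that factors of the RFX, CREB and NF-Y families bind. RefSeq promoters (GRCm38.p6, 250 bases before to 50 after the start) matched 35 of the 44 genes and 15 of the tested ones. Motifs were searched on both strands. The palindromic NF-kappaB motif is the longest run of capitals in the H2-K1 and H2-D1 promoters below. It was present in these 2 of the 35 genes and in 0.0333% of all 27025 genes. A gene counted where any of its promoter entries held the motif. TGACG was in 42.9% of the members and 23.0% of all, and CCAAT in 85.7% and 41.1%. The interferon element was searched only as GAAA, any pair of bases and GAAA again, which was in 8.57% and 3.99%. Forms of the element that depart from this GAAA pattern were not counted, so a promoter without a match can still hold one. Of the 2 promoter entries for H2-K1, only that at the position given is shown. The promoters of the classical genes, of B2m and of H2-T22, whose ratio was below 0, follow with the matches in capitals.
H2-K1 promoter, chr17:34000298-34000597, minus strand: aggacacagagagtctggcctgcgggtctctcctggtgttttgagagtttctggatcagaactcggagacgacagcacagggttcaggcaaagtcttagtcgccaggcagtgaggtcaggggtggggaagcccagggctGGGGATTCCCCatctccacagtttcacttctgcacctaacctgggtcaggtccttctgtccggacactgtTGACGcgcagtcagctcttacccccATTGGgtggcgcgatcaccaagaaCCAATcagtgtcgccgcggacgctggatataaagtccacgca
H2-D1 promoter, chr17:35262844-35263143, plus strand: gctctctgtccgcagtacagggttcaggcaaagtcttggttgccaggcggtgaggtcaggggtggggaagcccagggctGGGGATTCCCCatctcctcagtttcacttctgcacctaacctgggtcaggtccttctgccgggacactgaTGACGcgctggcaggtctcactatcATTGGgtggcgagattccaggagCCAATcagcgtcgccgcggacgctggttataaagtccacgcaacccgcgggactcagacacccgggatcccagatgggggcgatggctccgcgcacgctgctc
B2m promoter, chr2:122147437-122147736, plus strand: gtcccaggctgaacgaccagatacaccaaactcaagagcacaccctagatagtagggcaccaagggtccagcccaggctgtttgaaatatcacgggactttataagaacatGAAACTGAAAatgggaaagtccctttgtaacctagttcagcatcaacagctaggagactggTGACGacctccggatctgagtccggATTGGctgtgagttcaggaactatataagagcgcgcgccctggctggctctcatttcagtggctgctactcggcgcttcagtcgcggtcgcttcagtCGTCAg
H2-T22 promoter, chr17:36042693-36042992, minus strand: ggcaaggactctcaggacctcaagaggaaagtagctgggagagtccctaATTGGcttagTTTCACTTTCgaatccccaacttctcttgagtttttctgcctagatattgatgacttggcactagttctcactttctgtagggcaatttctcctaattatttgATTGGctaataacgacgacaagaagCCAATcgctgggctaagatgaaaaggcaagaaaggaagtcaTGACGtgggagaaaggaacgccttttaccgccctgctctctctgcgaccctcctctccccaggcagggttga

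Among the tested genes, both with the NF-kappaB motif had a ratio above 0. Of those with CCAAT, 9 had a ratio above 0 and 3 below, of those with TGACG 5 and 2. Of those with the GAAA pattern, 2 were above 0 and 1 below. H2-T22, at -0.20, holds 3 of the 4 motifs, and H2-T23, at 0.37, holds CCAAT and the GAAA pattern.

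Genes that act with the members were taken as lists. By limma 2.11% of all tested genes passed as higher and 2.77% as lower. At an unadjusted p under 0.05 these shares were 11.4% and 11.3%. Of 15 regulators of MHC genes 12 were tested, with a median of 0.03. At an unadjusted p under 0.05, 4 were higher and 3 lower. Past the adjusted threshold were 0 as higher and 1 as lower. That was Creb1, a factor of the SXY module, at -0.50 ± 0.11 (limma adjusted p = 0.0296). Nlrc5 and Ciita, the master coactivators of class I and class II, and Rfx5 had no tested probe. Only 14 of the 15 regulators were found on the array, so these genes were not all measured. Of 34 interferon response genes 20 were tested, with a median of 0.12. At an unadjusted p under 0.05, 5 were higher and 2 lower. Past the adjusted threshold were 0 as lower and 2 as higher. They were Ifih1, a sensor of double-stranded RNA, at 0.50 ± 0.14 (adjusted p = 0.0305) and Oas1a, an oligoadenylate synthetase, at 0.44 ± 0.04 (adjusted p = 0.0374). The other 14, among them Irf7, Isg15, Ifit1 and Mx1, were not well above background. Of 14 class I folding and trimming genes, all tested, with a median of -0.03, 1 rose and 1 fell. Erap1, the aminopeptidase that trims peptides in the endoplasmic reticulum, rose by 0.44 ± 0.05 (adjusted p = 0.0370), and the peptidase Nrd1 fell by 0.46 ± 0.17 (adjusted p = 0.0439). Of 7 class II loading genes 5 were tested and 0 passed (at an unadjusted p under 0.05, 0 higher and 2 lower). The largest were Ifi30, a lysosomal thiol reductase, at -0.31 ± 0.05 and the protease Ctsb at -0.24 ± 0.10. Cd74, the invariant chain, was at 0.09 ± 0.04.

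In pools of whole embryos fewer cells of a type and less RNA per cell cannot be told apart. For the marker counts here, 2.11% of all tested genes passed as higher and 2.77% as lower. At an unadjusted p under 0.05 these shares were 11.4% and 11.3%. Of 15 leukocyte markers 5 were tested and 0 passed (0 also at an unadjusted p under 0.05), with summed intensities of 798 to 956 in the mutant and 734 to 885 in the wild type. The pan-leukocyte gene Ptprc, the B cell genes Cd79a and Cd79b and the T cell genes Cd4 and Cd8a were not well above background. The largest of the list were Coro1a at 0.14 ± 0.20 and Lyz2 at 0.12 ± 0.03. Of 8 visceral endoderm and yolk sac markers 7 were lower in the mutant, with sums of 26321 to 30953 in the mutant against 49999 to 83277 in the wild type. Of 9 early embryo markers 3 were higher, Mesp1, Tbx6 and Meox1. Endothelial markers had 1 of 6 lower, Kdr at -0.54, and trophoblast and maternal markers had 0 of 6 and 0 of 5 past the threshold (1 and 0 at an unadjusted p under 0.05). Some of these markers had opposite signs in the sets. Hbb-b1, an adult beta globin, gave -1.19 and -1.50 in the stage-matched set and 1.30 and 0.52 in the age-matched set. Prl8a2, a marker of the maternal decidua, gave -0.94 and -0.93, then 0.77 and 0.25. Prl3d1, a trophoblast marker, gave -0.11 and -0.68, then 0.79 and 0.18. Maternal sums ran from 1269 to 4741 in the mutant and 2173 to 2595 in the wild type. The part of these tissues in the ratios of the MHC genes was not tested. Across the arrays 52.9 to 59.6% of spots were well above background in a channel, and none was saturated.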

How the data were processed

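Whole-embryo RNA (300 ng per labelling) was hybridised to 4 two-colour Agilent arrays of 43379 non-control spots. Per the file headers, the deposited scanner files hold linear intensity of spot and local background, a log10 ratio of the processed signals, and 0 or 1 marks (other) for detection and outliers, on an mm9 design. The authors used Feature Extraction 9.5.3 per the submitters' processing notes. Version 10.5.1.1 stands in the file headers. The deposited table of processed values is the same log10 ratio, turned to mutant over wild type on every array, with medians of 0 and differences of at most 5e-06.

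Intensities were background-corrected by normexp (offset 50) and loess-normalized within arrays in limma 3.58.1 (R 4.3.3), with control and marked spots at weight 0. Marked spots were left out and the spots of a probe averaged. A probe counts as well above background in a channel where at least 0.5 of its spots are, and is tested where that holds for 1 genotype on all 4 arrays. The mean log2 ratio of each set entered lmFit and eBayes (n = 2, 1 residual degree of freedom, prior 7.12), with Benjamini-Hochberg adjustment over 21940 probes. Scripts were tested on simulated data. Nothing says that the pools of the sets are independent of each other, so p-values measure only the spread between these sets. The number of arrays limits the precision.

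A gene is stood for by its brightest tested probe. Genes were named with every array's values where their group held 6 or fewer tested genes, or their mean was at least 0.5 in size, or 2 probes differed by 0.5. In the other lists, genes past the threshold were named, or otherwise the 2 with the largest ratio, and for neighbours the 3 largest. The members and lists were chosen with earlier results of these data known. Of 34747 named probes, 25097 matched RefSeq by accession, and of the member probes 61 of 73. Alternatives covered background correction, normalization, the filter, the choice of probes and leaving out each array.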

Additional observations from a re-analysis of the deposited data

How the results depend on the processing

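Over 11 settings, the mean ratio of 20 of the 21 member genes kept its sign wherever it was computed, and that of H2-gs10 kept it in 10. The sizes moved, as the ranges show: H2-K1 0.44 to 0.81, H2-Bl 0.70 to 1.10, B2m 0.15 to 0.60, H2-Ab1 -1.10 to -0.53 and H2-Q1 -1.36 to -0.32. The median ratio was 0.13 for classical class I and 0.25 for other class I with median centring, which also moved the median of all probes to -0.07. With the processed signals these medians were 0.38 and 0.42, and class II had -0.23. With no background correction other class I had 0.32. With no filter on dim probes other class I had 0.029 and class II 0.018, where it was -0.14, because more genes enter. With the mean of a gene's probes, classical class I had 0.30 and other class I 0.24. With probes that list at most 1 gene, an alternative chosen after seeing the data, they had 0.36 and 0.22. For processing genes, leaving out each array gave 0.15 to 0.30, lowest without age-matched array 1.

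Member probes passing as higher (8) and lower (2) numbered 4 higher with median centring, 1 and 0 with no background correction, 1 lower with no filter, 1 lower with both channels above background, and 14 and 5 with the 4 arrays taken as independent. Leaving out each array gave 0 to 8 higher and 0 to 2 lower. Over all probes, 365 passed as higher and 690 as lower. These were 120 higher with median centring, 20 and 42 with no background correction, 747 and 1077 with processed signals, 209 and 386 with no filter, and 733 and 1216 with independent arrays. Leaving out each array gave 10 to 394 higher and 13 to 814 lower. The difference between sets passed for 507 probes, 1 with median centring, 0 with no background correction and 150 with processed signals. Member probes there numbered 0, and 2 with processed signals, 1 with no filter and 1 with scaled ratios. The cause of these shifts was not tested. No paired analysis was possible because the array numbers mark the dye orientation within a set and do not pair samples across sets.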
